A study of Mus musculus with 17 samples.

Results

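The urea cycle and amino acid catabolism genes described here are 34 mouse genes, listed by symbol for their role in these pathways and looked up among the 52545 genes of the deposited liver table. All 34 were found, none was listed at 0 in any library, and all passed the filter on low values. They were measured by bulk RNA sequencing of non-tumorous liver from male C57BL/6J mice aged 32 weeks, with 1 library per mouse. Regular diet mice (n = 5) had no treatment. Vehicle Control mice (n = 6) ate CDA-HFD, a high-fat diet that lacks choline and holds free amino acids in defined amounts, and had a single dose of 100 mg/kg of the liver carcinogen diethylnitrosamine (DEN) in week 1 and phosphate-buffered saline (PBS) into the abdomen 1 time a week for 16 weeks. CLDN1 mAb mice (n = 6) had the same diet and DEN, and 500 µg of an antibody to claudin-1, which is found in tight junctions, in place of PBS. Diet, DEN and injections all differ between the Regular diet mice and both other groups and cannot be told apart.

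The urea cycle turns the ammonia freed by amino acid breakdown into urea, mainly in the hepatocytes around the portal vein, while hepatocytes around the central vein capture the remaining ammonia as glutamine. Amino acid catabolism removes nitrogen by transaminases, deaminases and glutamate dehydrogenase, and sends the carbon skeletons to glucose, ketone bodies or the citric acid cycle. The liver is the main site of breakdown for most amino acids other than the branched-chain ones, and many of these enzymes are hepatocyte-restricted and respond to glucagon and glucocorticoids.

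Promoters are shown for the urea cycle genes with the largest and the smallest fall in Vehicle Control liver, Car5a and Otc. Of the 34 genes, 26 had an entry in the RefSeq promoter table (build GRCm38.p6), and each entry was searched on both strands over 300 bases, of which the 250 before the start site are printed. Capitals mark letters that match one of the searched motifs. Car5a lies on chr8:121944913-121945162 (minus strand) and Otc on chrX:10252055-10252304 (plus strand).
Car5a: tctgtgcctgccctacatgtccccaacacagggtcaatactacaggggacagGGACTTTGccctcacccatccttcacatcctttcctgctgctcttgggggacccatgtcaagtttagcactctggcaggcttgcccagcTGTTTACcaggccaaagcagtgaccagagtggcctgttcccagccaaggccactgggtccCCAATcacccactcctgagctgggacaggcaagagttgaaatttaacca
Otc: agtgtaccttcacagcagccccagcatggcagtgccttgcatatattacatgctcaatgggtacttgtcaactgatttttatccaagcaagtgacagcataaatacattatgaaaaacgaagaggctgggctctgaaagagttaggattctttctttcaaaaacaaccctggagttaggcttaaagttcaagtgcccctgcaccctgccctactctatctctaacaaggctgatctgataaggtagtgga
In Car5a, the capitals are, from left to right, the reverse complement of the HNF4 core CAAAGTCC, the FOXA motif TGTTTAC and the CCAAT box CCAAT. The Otc window held none of the motifs searched. CCAAT was found in 11 of 26 member promoters and in 37.9% of the 27025 promoters of that table, and the C/EBP motif TTGCNNAA was found in 5 of 26 (Hao1, Aass, Hal, Ddc and Hgd) against 10.8% of all. The HNF4 core was found in 1 of 26 against 1.44% of all, FOXA in 1 of 26 against 3.55%, the E-box CACGTG in 1 of 26 (Ass1) against 7.24%, and TGACG, the core of the cyclic AMP response element, in 2 of 26 (Aass and Nags) against 21.02%. The full element TGACGTCA, which holds TGACG, and the ATF4 composite TGATGNAAT were in none of the 26, and in 1.88% and 0.969% of all promoters. These matches describe letters only.

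Regular diet liver held these transcripts at high levels, and per kilobase of exon the order ran from Hpd to Sdsl. The mean normalized count per kilobase was 67379 ± 39921 (SD, n = 5) for Hpd, which makes homogentisate in tyrosine breakdown. It was 61541 ± 20274 for Ass1, 56945 ± 23365 for Tat and 45067 ± 10494 for Cps1. Neighbours among these 4 lay within each other's spread. The lowest was Sdsl, a serine dehydratase-like gene, with 903 per kilobase. In Vehicle Control liver the top of the order held the same 6 genes (Ass1, Hpd, Tat, Cps1, Arg1 and Tdo2), while Gpt2 moved from rank 26 to rank 10 of 34 and Haao from rank 12 to rank 25.

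**Figure D1:**
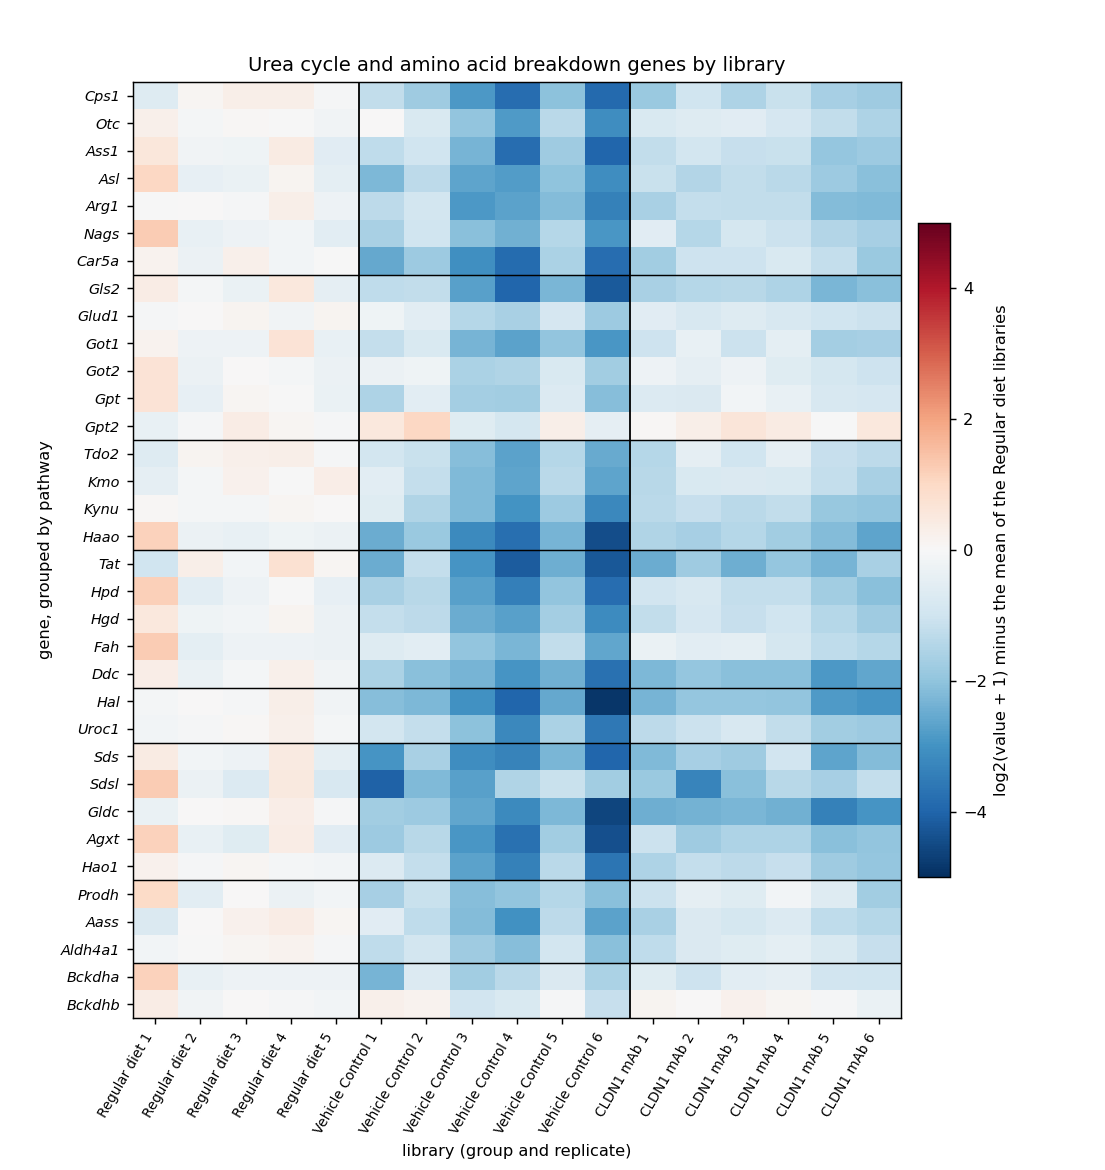
Each cell is log2(normalized count + 1) of 1 gene (rows, grouped by pathway) in 1 library (columns), minus the mean of the 5 Regular diet libraries. Blue cells cover nearly all genes in Vehicle Control and CLDN1 mAb libraries, darkest in Vehicle Control 3, 4 and 6, and Gpt2 and Bckdhb are the palest rows.

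The first comparison asks how the diet and carcinogen model changed these genes, Vehicle Control against Regular diet. Nearly the whole set fell: 32 of 34 genes were lower, none was higher, and 2 (Gpt2 and Bckdhb) did not pass the test at an adjusted p of 0.05 in limma. Over all 18624 genes tested, 20.7% were lower and 29.8% were higher. The members' median log2 fold change was -2.09, against 0.04 over all genes tested, and ran from -3.14 (Hal) to -0.02 (Gpt2). In 29 of 34 genes every Vehicle Control library lay below every Regular diet library, which was so for 10.5% of all genes tested. Fewer hepatocytes and less RNA per hepatocyte cannot be told apart in bulk liver.

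All 7 urea cycle genes fell. Cps1, the mitochondrial carbamoyl phosphate synthetase that commits ammonia to the cycle, had normalized counts of 157954, 260536, 296600, 301237 and 235420 in the Regular diet mice, against 16284, 46629.9 and 103520 (lowest, median, highest) in Vehicle Control. Every Vehicle Control value was below every Regular diet value, and the fall was 6.08-fold (log2 -2.60 ± 0.42 SE, adjusted p = 6.01e-05, limma). Car5a, the mitochondrial carbonic anhydrase that supplies bicarbonate to Cps1, had 4419, 3239, 4683, 3604 and 3839 in Regular diet and 268, 568.4 and 1292 in Vehicle Control. The groups did not overlap, and Car5a had the largest fall of the cycle, 6.88-fold (log2 -2.78 ± 0.36, adjusted p = 4.95e-06). Nags, which makes the N-acetylglutamate that Cps1 requires, had 11418, 3618, 3957, 4346 and 3315 against 622, 1332 and 2374. Here replicate 1 of the Regular diet stood far above the other 4, and the groups were separate without it too (log2 -1.90 ± 0.35, adjusted p = 0.000189).

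Otc, which joins carbamoyl phosphate to ornithine, had the smallest fall of the cycle. Its normalized counts were 40861, 31885, 35608, 34410 and 30547 in Regular diet and 3971, 11134 and 34559 in Vehicle Control (log2 -1.67 ± 0.42, adjusted p = 0.00307). The groups overlapped, because Vehicle Control replicate 1 lay inside the Regular diet range, and the Vehicle Control values spanned 8.70-fold, the widest span of any member in that group. Ass1, which joins citrulline to aspartate, had 209599, 125007, 121458, 190866 and 95870.3 against 9217, 34819 and 72038 (log2 -2.35 ± 0.47, adjusted p = 0.000472). Asl, which splits argininosuccinate into arginine and fumarate, had 68288, 24972, 26534, 36641 and 23638 against 3801, 6103 and 13219 (log2 -2.36 ± 0.32, adjusted p = 7.89e-06). Arg1, which releases urea from arginine, had 74776, 75064, 72158, 92249 and 63641 against 7203, 14266 and 39724 (log2 -2.22 ± 0.37, adjusted p = 7.17e-05). In Ass1, Asl and Arg1 the groups did not overlap.

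**Figure D2:**
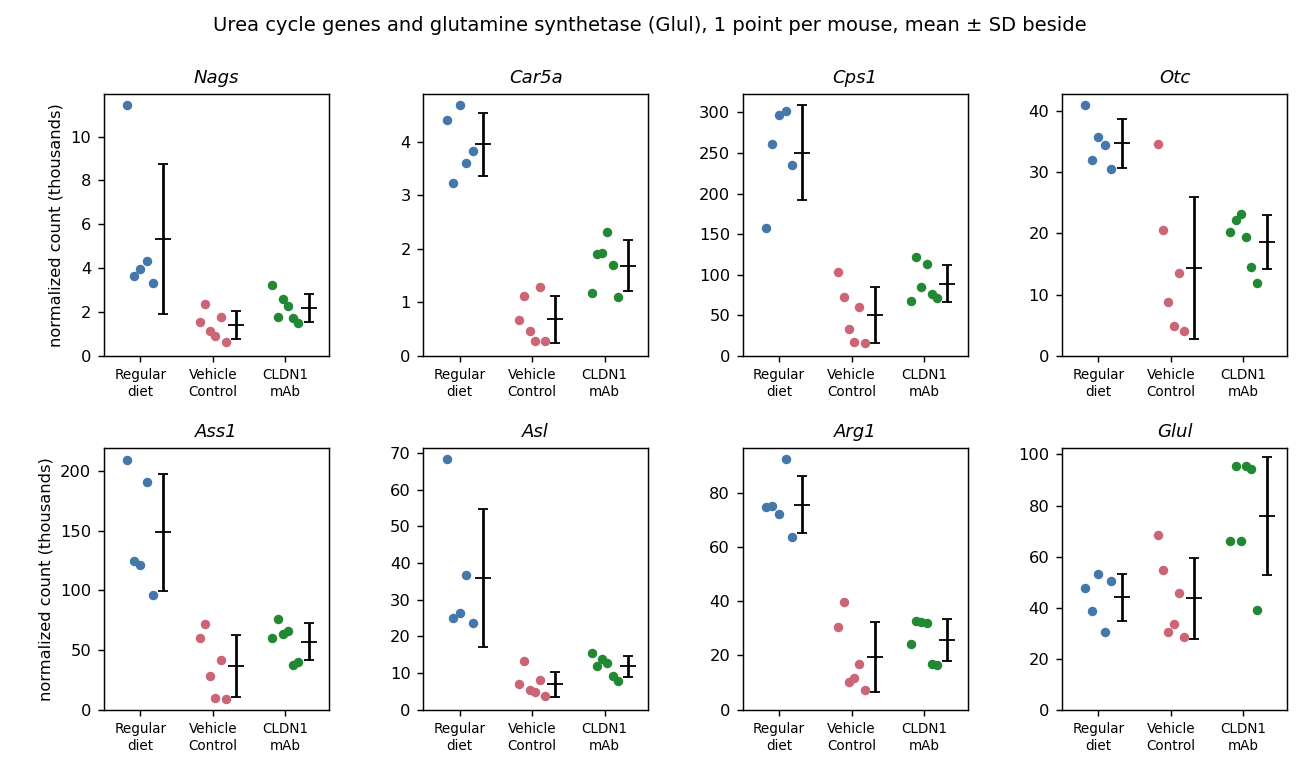
Normalized counts (vertical axis, from 0, in units of 1000) of the 7 urea cycle genes and of glutamine synthetase (Glul) in each mouse, with the group mean ± SD beside the points. Regular diet points lie above Vehicle Control points in every urea cycle panel except Otc, where 1 Vehicle Control mouse reaches 34559, while Glul overlaps between these groups.

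Among the genes that handle glutamine and glutamate and the transaminases, 5 of 6 fell. Gls2, the liver glutaminase, had 34559, 25393, 21592, 38624 and 19536 in Regular diet and 1453, 4863 and 11599.8 in Vehicle Control. The groups did not overlap, and the fall was 6.07-fold (log2 -2.60 ± 0.46, adjusted p = 0.000138). The smaller falls were those of Got1 (log2 -1.97), the cytosolic aspartate transaminase, of Gpt (-1.39), the cytosolic alanine transaminase, of Glud1 (-1.07), glutamate dehydrogenase, and of Got2 (-1.02), the mitochondrial aspartate transaminase. Gpt2, the mitochondrial alanine transaminase, had 15474, 19105, 25480, 21302 and 19131 against 10878, 19326 and 40457 (log2 -0.02 ± 0.28, adjusted p = 0.965, limma). Its Vehicle Control values lay on both sides of the Regular diet range, and its direction turned to 0.78 (adjusted p = 0.00855) under quantile normalization and to 1.17 (adjusted p = 0.00222) when libraries were scaled by hepatocyte secretory genes. With limma's quality weights per library it was lower instead (log2 -0.49, adjusted p = 0.0415). The log2 differences of Glud1 and Got2 were 0.12 and 0.17 under the latter scaling, with adjusted p of 0.615 and 0.339.

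The tryptophan genes all fell. Haao, which opens the ring of 3-hydroxyanthranilate on the route to NAD, had 88332, 31687, 30694, 33940 and 31908 in Regular diet and 1833, 5716 and 10745 in Vehicle Control. The groups did not overlap, and the fall was 8.04-fold (log2 -3.01 ± 0.41, adjusted p = 8.38e-06). Kynu (kynureninase, log2 -2.05), Tdo2 (tryptophan dioxygenase, the first step, -1.80) and Kmo (kynurenine monooxygenase, -1.76) fell less, each without overlap.

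All 5 genes of tyrosine and other aromatic amino acids fell. Tat, which transaminates tyrosine and is a classic glucocorticoid-responsive liver gene, had 63073, 156695, 114155, 216062 and 134772 in Regular diet and 6648, 19560.2 and 55078 in Vehicle Control. The groups did not overlap, and the fall was 7.57-fold (log2 -2.92 ± 0.45, adjusted p = 3.73e-05). Ddc, which decarboxylates aromatic amino acids, had the smallest adjusted p of all members (log2 -2.52 ± 0.29, adjusted p = 1.37e-06). Hpd (log2 -2.49), Hgd (homogentisate dioxygenase, log2 -2.09) and Fah (fumarylacetoacetate hydrolase, the last step, log2 -1.55) also fell without overlap.

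The largest fall of all was in histidine breakdown. Hal, histidine ammonia-lyase, the first step, had 34422, 36833, 35720, 45550 and 32509 in Regular diet and 1254, 5334 and 8404 in Vehicle Control. The lowest Regular diet value was above the highest Vehicle Control value, and the fall was 8.81-fold (log2 -3.14 ± 0.39, adjusted p = 3.87e-06). Uroc1, urocanate hydratase and the next step, fell too (log2 -2.09).

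All 5 serine, glycine and glyoxylate genes fell without overlap. Sds, serine dehydratase, had 14604, 9780, 9197, 15011 and 7709 in Regular diet and 691, 1337 and 3547 in Vehicle Control (log2 -2.87 ± 0.36, adjusted p = 3.44e-06), a fall of 7.33-fold. The others were Gldc of the glycine cleavage system (log2 -2.70), Agxt, which transaminates glyoxylate (log2 -2.67), Sdsl (log2 -2.22) and Hao1, glycolate oxidase (log2 -2.16).

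In proline and lysine breakdown, all 3 genes fell. Aass, the first enzyme of lysine breakdown by the saccharopine route, had 10310.3, 17678, 20028, 22278 and 18540 in Regular diet and 2120.3, 5329 and 11764 in Vehicle Control (log2 -1.84 ± 0.36, adjusted p = 0.000395). The groups overlapped through Regular diet replicate 1 and Vehicle Control replicate 1. Prodh, proline dehydrogenase (log2 -1.73), and Aldh4a1, the next step (log2 -1.51), fell without overlap. Of the branched-chain ketoacid dehydrogenase subunits, Bckdha had 39180, 13671, 15034, 14961 and 15067 in Regular diet and 3589, 6513 and 11031 in Vehicle Control (log2 -1.40 ± 0.30, adjusted p = 0.000786), without overlap. Bckdhb had 5159, 3550, 4086, 3823 and 3683 against 1793, 3130 and 4858 (log2 -0.41 ± 0.23, adjusted p = 0.151), and the groups overlapped. Bckdhb passed the limma test without Vehicle Control replicate 1 (log2 -0.55, adjusted p = 0.0436), and with quality weights (log2 -0.63, adjusted p = 0.00167). The weighted fit called all 34 members lower, and 6042 genes lower and 7151 higher of all 18624. Under scaling by hepatocyte secretory genes Bckdhb was above 0 (log2 0.77, adjusted p = 0.00317, limma).

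**Figure D3:**
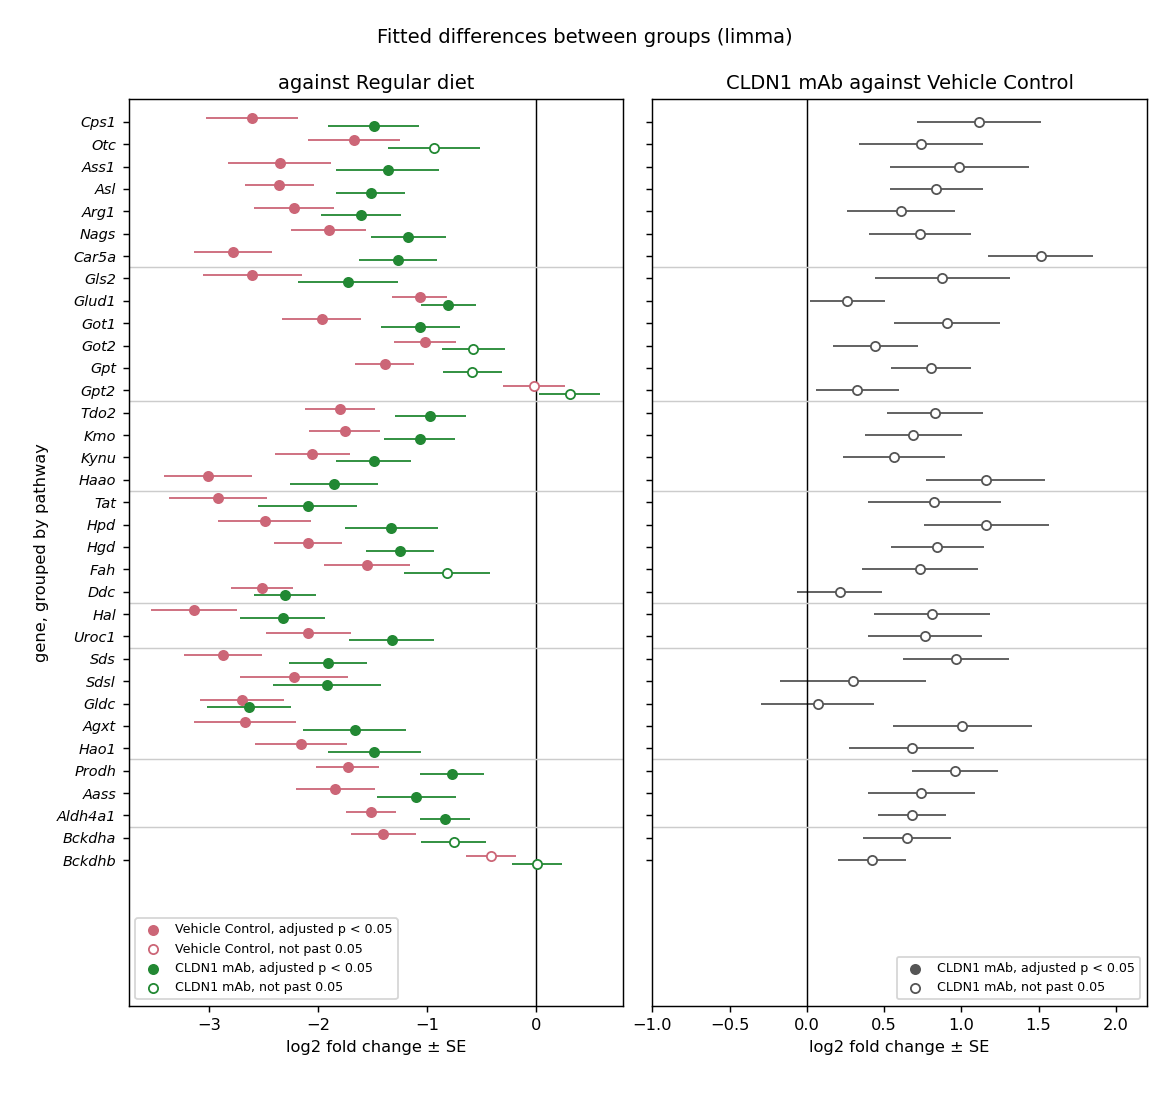
Fitted log2 fold change ± SE (horizontal axes) of each of the 34 genes (vertical axis), against Regular diet on the left and CLDN1 mAb against Vehicle Control on the right, with filled points for adjusted p under 0.05. On the left, 32 Vehicle Control and 27 CLDN1 mAb points are filled and lie below 0, and on the right, all 34 points are open and lie above 0.

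The fall was uneven between Vehicle Control mice. Replicates 3, 4 and 6 were the 3 lowest libraries of the group in most genes (among the lowest 3 in 33, 32 and 33 of 34 genes), and replicate 6 was the lowest in 25. The 34 genes made up 2.79 ± 0.42% of the deposited total in Regular diet (SD, n = 5), 1.07 ± 0.45% in Vehicle Control (n = 6, from 0.561% to 1.62%) and 1.50 ± 0.19% in CLDN1 mAb (n = 6). The summed normalized count of 12 macrophage markers was 10965 to 29141 in Regular diet and 104511 to 356036 in Vehicle Control, with 10 of 12 markers higher (median log2 fold change 3.10). It was highest in the same replicates 3, 4 and 6 (356036, 310009 and 346962), against 104511 to 200607 in the other 3. So were the stellate cell and fibroblast, dendritic cell, T cell, neutrophil and cholangiocyte sums. The hepatocyte-marker sum was lowest in these replicates (1194780, 1470290 and 1137730), against 2763080 to 3119940 in the other 3. All 6 cholangiocyte markers were higher (median log2 fold change 4.06, summed counts of 44671 to 99654 against 2513 to 4048), of which Spp1 is also in the macrophage list, and 5 of 7 Kupffer cell markers were lower (median -1.67). Of the other marker lists, 6 of 7 T cell, 7 of 7 dendritic cell and 6 of 9 stellate cell and fibroblast markers were higher, and 11 of 14 tested hepatocyte markers were lower and none higher (median -1.26). Alb was listed at 0 in every library, and Trf was at 0 in Vehicle Control 1, 2 and 3 and CLDN1 mAb 3, although hepatocytes normally make both in abundance, so these zeros may be failed estimates. Without Trf, 10 of 13 hepatocyte markers were lower (median -1.15), and the deposited totals behind the shares above hold no Alb. Of the kidney, pancreas and muscle markers, Slc12a1, Aqp2, Kap, Prss1, Ins1, Ins2 and Myh4 were listed at 0, but each list held other genes above 0. Over all libraries the summed counts were 28.1 to 571 for kidney and 620 to 5282 for pancreas. They were 38.8 to 103 for muscle and 4483 to 11818 for intestine. In Vehicle Control against Regular diet, Slc22a12 (kidney) and Vil1 and Lgals4 (intestine) were higher. Lrp2 (kidney) and Cela1 (pancreas) were lower. The part of cell composition in the members' fall was not tested.

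In every Vehicle Control mouse the members lay further below Regular diet than did 19 genes for secreted hepatocyte proteins. The cause was not tested. In each Vehicle Control library the members' median log2 difference from the Regular diet mean was below that of the secretory genes, with a gap of -0.81 ± 0.15 on average (SD, n = 6) and a range of -1.10 to -0.71. In the CLDN1 mAb libraries the same gap was -0.64 ± 0.23, with a range of -0.96 to -0.31. The Regular diet libraries ranged from -0.54 (replicate 1) to 0.34. When all libraries were scaled by these genes, 21 of the 34 members were lower in Vehicle Control and 2 (Gpt2 and Bckdhb) were higher. Of all 18624 genes, 432 were then lower and 11666 higher, and the median of all genes shifted to 1.20.

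**Figure D4:**
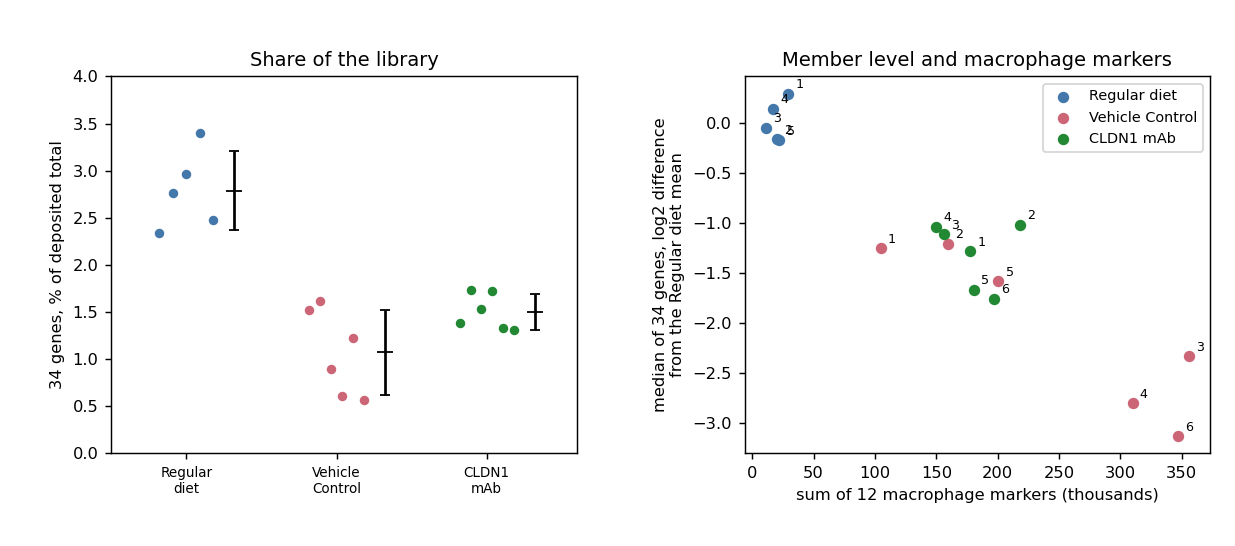
Left, the 34 genes as a percent of the deposited total (vertical axis, from 0) in each mouse, with mean ± SD. Right, for each mouse (numbered by replicate), the median log2 difference of the 34 genes from the Regular diet mean against the summed count of 12 macrophage markers (in units of 1000); Vehicle Control 3, 4 and 6 lie at the lower right.

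The second comparison asks what the antibody changed within the model, CLDN1 mAb against Vehicle Control. No member passed the test, and neither did any of the 18624 genes (0% lower and 0% higher, limma), although 586 genes were lower and 805 higher at an unadjusted p under 0.05. All 34 members had a fitted difference above 0, as 44.3% of all genes tested did, with a median log2 fold change of 0.75 against -0.05 over all genes tested. With the same total per library 33 were above 0 (all but Gldc), and under scaling by hepatocyte secretory genes 27 were, with Glud1, Got2, Gpt2, Sdsl, Gldc, Ddc and Bckdhb below 0 and a median of 0.24. An unadjusted p under 0.05 was reached by 19 of 34 members (55.9%) and by 7.47% of all genes tested, and the members' adjusted p ran from 0.659 to 0.965. No member had every CLDN1 mAb library above every Vehicle Control library, which was so for 12 genes, or 0.0644% of those tested.

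Car5a had the largest difference of the members. Its normalized counts were 1091, 1810 and 2307 (lowest, median, highest) in CLDN1 mAb against 268, 568.4 and 1292 in Vehicle Control (log2 1.51 ± 0.34, unadjusted p = 0.000327, adjusted p = 0.659, limma). All 6 CLDN1 mAb values were above the Vehicle Control mean, and the ranges overlapped only between 1091 and 1292. Prodh, the first step of proline breakdown, had 2915, 6345 and 8894 against 2253, 2787 and 4502 (log2 0.96 ± 0.28, unadjusted p = 0.00287, adjusted p = 0.659). Its partner Aldh4a1 had 11057, 15872 and 19267 against 6182, 9507 and 14106 (log2 0.68 ± 0.22, unadjusted p = 0.00599, adjusted p = 0.659). In both, 1 or more CLDN1 mAb mice lay inside the Vehicle Control range.

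Gpt, the cytosolic alanine transaminase, had 7904, 8627 and 12852 in CLDN1 mAb against 3213, 4559 and 9635 in Vehicle Control (log2 0.80 ± 0.26, unadjusted p = 0.00602, adjusted p = 0.659). Haao had 6304, 12220 and 14567 against 1833, 5716 and 10745 (log2 1.16 ± 0.39, unadjusted p = 0.00788, adjusted p = 0.659). For the other urea cycle genes the log2 differences were 1.11 for Cps1, 0.99 for Ass1, 0.84 for Asl, 0.74 for Otc, 0.73 for Nags and 0.61 for Arg1. Cps1 had 67566, 80747 and 121904 in CLDN1 mAb, so the lowest antibody-treated mouse was above the Vehicle Control median of 46629.9 and below its highest value of 103520. The other log2 differences were 1.16 for Hpd, 1.01 for Agxt, 0.97 for Sds, 0.91 for Got1, 0.88 for Gls2, 0.85 for Hgd, 0.83 for Tdo2, 0.82 for Tat and 0.81 for Hal. They were 0.76 for Uroc1, 0.74 for Aass, 0.73 for Fah, 0.69 for Kmo, 0.68 for Hao1, 0.65 for Bckdha, 0.56 for Kynu, 0.44 for Got2, 0.42 for Bckdhb and 0.33 for Gpt2. The smallest were 0.07 for Gldc, 0.21 for Ddc, 0.26 for Glud1 and 0.30 for Sdsl, so that Gldc counts of 1492, 2929 and 3208 in CLDN1 mAb lay beside 650, 2888 and 4658 in Vehicle Control.

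The ratio of the highest to the lowest library was wider in Vehicle Control than in CLDN1 mAb for 33 of 34 members (median 4.98-fold and 1.96-fold), and Prodh went the other way, at 1.998-fold and 3.05-fold. This difference in spread was not tested, and no count over all genes is given here. It was also seen outside the members. The SD of the secretory genes' median log2 difference was 0.74 in Vehicle Control and 0.34 in CLDN1 mAb. That of the macrophage-marker sum was 105744 and 25281. Otc values spanned 8.70-fold in Vehicle Control (3971 to 34559) and 1.94-fold in CLDN1 mAb (11942 to 23148). Tat spanned 8.29-fold and 1.82-fold, and Cps1 6.36-fold and 1.80-fold. The macrophage-marker sum was 149720 to 217820 in CLDN1 mAb, inside the Vehicle Control range, and 11 of its 12 markers had a fitted difference below 0 (median log2 fold change -0.48, none passing the test). The secretory genes were likewise above 0 in 20 of 20 (19 of 19 without Trf, median 0.51 either way, none passing), and their part in the members' difference was not tested. The library codes of these groups fall in 2 runs, 25 to 30 and 36 to 42, each with 3 mice of either group, and the Regular diet libraries hold codes 31 to 35. No label says that a run is a batch. The median log2 difference over the members was 0.42 in the first run (31 of 34 above 0) and 1.06 in the second (34 of 34 above 0). For Vehicle Control against Regular diet it was -1.57 with the Vehicle Control mice of the first run and -2.58 with those of the second. With quality weights that limma estimates per library (0.175 for Vehicle Control 1 and 0.383 for Vehicle Control 2, against 1.88 for Vehicle Control 4), 31 of 34 members and 2512 genes in all were called higher and 2798 genes lower.

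The third comparison, CLDN1 mAb against Regular diet, uses the same Regular diet libraries as the first, so the fold changes are given side by side and not as separate evidence. In it 27 of 34 members were lower, none was higher and 7 did not pass, against 14.1% lower and 24.8% higher of all genes tested. The members' median log2 fold change was -1.30, against -2.09 in Vehicle Control. Gldc (log2 -2.63 ± 0.39, adjusted p = 3.03e-05) and Ddc (-2.30 ± 0.29, adjusted p = 5.49e-06) were close to their Vehicle Control values of -2.70 and -2.52. Hal (-2.33 ± 0.39, adjusted p = 0.000133) and Tat (-2.10 ± 0.45, adjusted p = 0.00123) completed the 4 largest. Of the urea cycle, Arg1 (-1.61), Asl (-1.52), Cps1 (-1.49), Ass1 (-1.36), Car5a (-1.27) and Nags (-1.17) were lower. The 7 genes that did not pass were Otc (-0.93, adjusted p = 0.0905), Fah (-0.82, adjusted p = 0.110), Bckdha (-0.75, adjusted p = 0.0538), Gpt (-0.58, adjusted p = 0.0969), Got2 (-0.57, adjusted p = 0.126), Gpt2 (0.31, adjusted p = 0.419) and Bckdhb (0.01, adjusted p = 0.978). With only these groups in the fit, Otc (adjusted p = 0.00139), Bckdha (adjusted p = 0.0339), Gpt (adjusted p = 0.0373) and Got2 (adjusted p = 0.0443) passed and Prodh did not (adjusted p = 0.0637). With quality weights Otc (adjusted p = 0.00811), Bckdha (adjusted p = 0.0166), Got2 (adjusted p = 0.0284) and Fah (adjusted p = 0.0321) passed and Prodh did not (adjusted p = 0.123). Of the other genes, Sdsl (-1.92), Sds (-1.91), Haao (-1.85), Gls2 (-1.73), Agxt (-1.66), Kynu (-1.49), Hao1 (-1.48), Hpd (-1.33), Uroc1 (-1.33) and Hgd (-1.25) were lower by more than Aass (-1.10), Kmo (-1.07), Got1 (-1.06), Tdo2 (-0.97), Aldh4a1 (-0.83), Glud1 (-0.80) and Prodh (-0.77). Single libraries decided some of these calls. Ass1 (without Regular diet 1 or 4 or CLDN1 mAb 5 or 6), Got1 (without Regular diet 4 or CLDN1 mAb 5 or 6), Aass (without Regular diet 3 or 4 or CLDN1 mAb 1), Tdo2 (without Regular diet 2, 3 or 4 or CLDN1 mAb 1 or 6) and Prodh (without Regular diet 1, 3 or 5 or CLDN1 mAb 1, 3, 5 or 6) lost theirs, at adjusted p from 0.0504 to 0.108. Otc (adjusted p = 0.0351) and Bckdha passed without Vehicle Control 1, and Bckdha also without Vehicle Control 2 or 5 or Regular diet 2 (adjusted p from 0.0316 to 0.0487). Otc did not overlap between the groups although it missed the threshold, with 11942, 19859 and 23148 in CLDN1 mAb and no Regular diet value under 30547.

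Ratios of related genes within a library, taken as log2 of (count + 1) over (count + 1), hardly depend on a factor that scales the whole library. In 12 such pairs, over 3 comparisons and so 36 two-sided exact permutation tests, 11 pairs differed in Vehicle Control against Regular diet, 10 in CLDN1 mAb against Regular diet and 1 in CLDN1 mAb against Vehicle Control (Benjamini-Hochberg over all 36). The smallest p these designs allow is 0.00433 for 5 mice against 6 and 0.00216 for 6 against 6. The ratios reuse the counts fitted above, so their calls are not separate evidence of the members' fall. The part of cell composition in the ratios was not tested.

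The alanine transaminases changed their balance. The log2 ratio of Gpt2 to Gpt, mitochondrial over cytosolic, was 0.51 ± 0.59 in Regular diet (SD, n = 5), 1.88 ± 0.46 in Vehicle Control (n = 6) and 1.40 ± 0.25 in CLDN1 mAb (n = 6). Vehicle Control differed from Regular diet by 1.37 without overlap (exact p = 0.00433, adjusted p = 0.00820), and CLDN1 mAb from Regular diet by 0.89 (same p values). Gpt itself had 22402, 10482, 14860.2, 13816 and 11051 in Regular diet. For the aspartate transaminases the balance moved to the mitochondrial form, with a Got1 over Got2 ratio lower by 0.95 in Vehicle Control (exact p = 0.00433, adjusted p = 0.00820, no overlap). In CLDN1 mAb against Regular diet this ratio did not pass (-0.49, exact p = 0.147, adjusted p = 0.189) and the ranges overlapped. Got1 had 17199, 13070, 13060, 24769 and 12039.5 in Regular diet and 2067, 3518 and 9161 in Vehicle Control. Got2 had 38416, 19668, 24101, 22336 and 19460.5 against 7258, 11183 and 20841.

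Glutamine synthetase, the other route of ammonia removal, did not pass the test in Vehicle Control while the urea cycle genes fell. Among hepatocytes, its gene Glul is restricted to the pericentral ones, and the part of other cells in its bulk level was not tested. Glul had 47665, 38713, 53019, 30407 and 50311 in Regular diet, 28550.1, 39833 and 68382 in Vehicle Control and 38909, 80149.9 and 95476 in CLDN1 mAb. Its fitted difference was -0.06 ± 0.28 in Vehicle Control against Regular diet (adjusted p = 0.877) and 0.75 ± 0.28 in CLDN1 mAb against Regular diet (adjusted p = 0.0445). The log2 ratio of Glul to Cps1 was -2.50 ± 0.59 in Regular diet, 0.04 ± 0.68 in Vehicle Control and -0.26 ± 0.39 in CLDN1 mAb. It was higher than in Regular diet by 2.54 in Vehicle Control and by 2.24 in CLDN1 mAb, both without overlap (exact permutation p = 0.00433, adjusted p = 0.00820).

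Low-level relatives of Car5a and Arg1 gained on the main liver form. Car5b, the second mitochondrial carbonic anhydrase, had 192, 259, 215, 230 and 220 in Regular diet and 82.2, 128 and 227 in Vehicle Control, a smaller fall than that of Car5a (ratio higher by 2.05, exact permutation p = 0.00433, adjusted p = 0.00820). Arg2, the extrahepatic arginase, had under 41 counts in every library, and its ratio to Arg1 was higher by 3.38 (same p values). Ido2 fell more than Tdo2 (ratio lower by 0.94) with the same p values. The Bckdha to Bckdhb ratio was lower by 0.99, and that of Bckdk, the kinase that switches off the branched-chain complex, to Bckdha was higher by 1.63 (both exact permutation p = 0.00433, adjusted p = 0.00820). Odc1, which uses ornithine for polyamines, differed from Otc by 1.60 (exact permutation p = 0.0260, adjusted p = 0.0425), a call lost without any 1 of the 5 Regular diet mice or of Vehicle Control 2 to 6 (adjusted p from 0.0659 to 0.0779), and Sdsl over Sds did not pass (0.66, exact permutation p = 0.316, adjusted p = 0.367).

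Serine synthesis against alanine breakdown gave the pair that differed between the treated groups. Psat1, phosphoserine aminotransferase, had 27.02, 44.62, 21.004, 24.77 and 30.55 in Regular diet, 457, 561 and 1048 in Vehicle Control and 301, 401 and 604 in CLDN1 mAb. Regular diet lay far below both other groups, which overlapped. Its log2 ratio to Gpt was lower by 1.41 in CLDN1 mAb than in Vehicle Control (exact permutation p = 0.00866, adjusted p = 0.0148), with overlapping ranges. Next came Car5b over Car5a, lower by 1.06 (exact permutation p = 0.0346, adjusted p = 0.0542), which passed without Vehicle Control replicate 2 (adjusted p = 0.0436) or 5 (adjusted p = 0.0142).

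**Figure D5:**
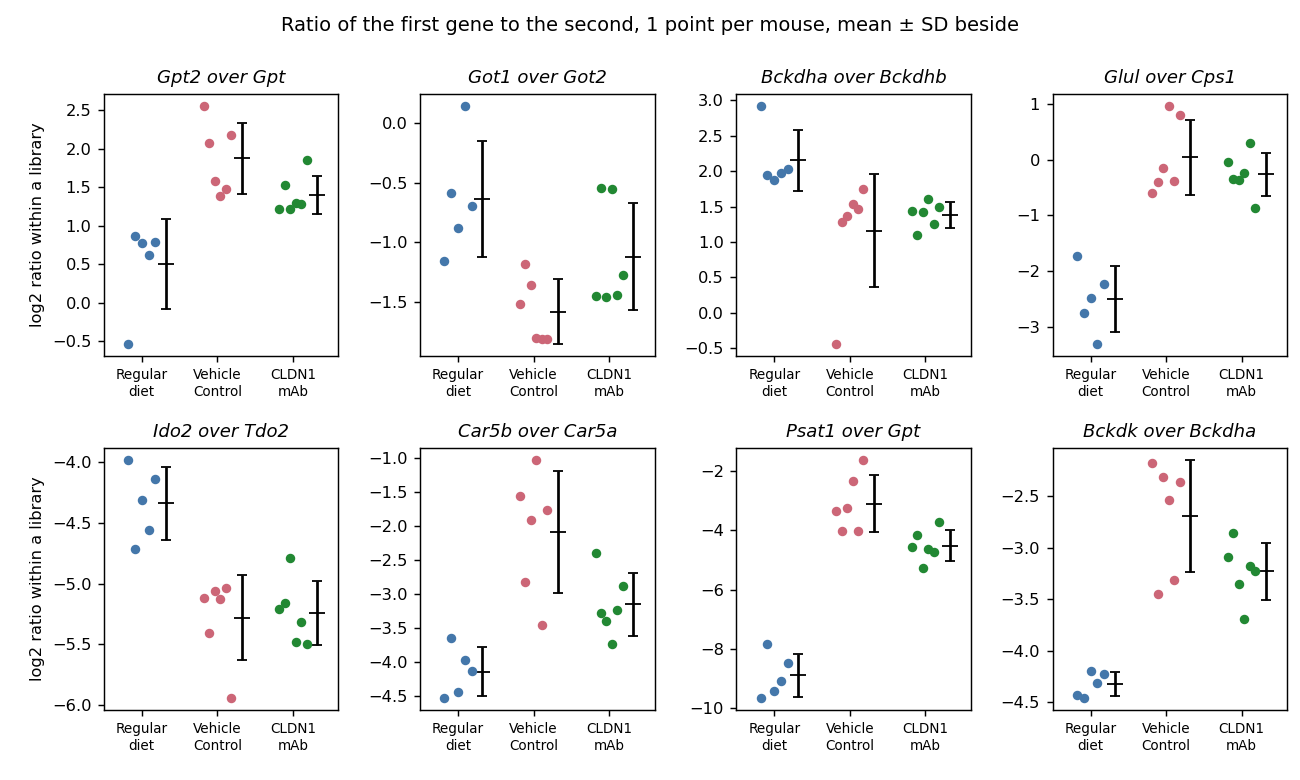
Log2 ratio of the first gene to the second within each library (vertical axes), 1 point per mouse, with mean ± SD beside. Glul over Cps1 is -2.50 in Regular diet and near 0 in both other groups, and Psat1 over Gpt is the only one of the 12 pairs that passed the test between Vehicle Control and CLDN1 mAb.

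Other genes of amino acid metabolism were read from lists, and those in breakdown went the members' way. Of 58 other amino acid breakdown enzymes, 55 were tested, 52 were lower and none was higher in Vehicle Control (median log2 fold change -1.59), against 20.7% lower and 29.8% higher over all genes tested, led by Afmid (-3.36, kynurenine formation), Ido2 (-2.74), Csad (-2.71, taurine synthesis from cysteine) and Cbs (-2.59, transsulfuration). Of 21 tested genes of amino acid synthesis and of arginine or ornithine use, 10 (47.6%) were higher, led by Psat1 (4.39) and Phgdh (3.60) of serine synthesis and Aldh18a1 (2.73) and Pycr1 (2.48) of proline synthesis, and 4 (19.0%, near the share of all genes) were lower, Shmt1 (-1.88), Shmt2 (-1.44), Pycrl (-1.12) and Gamt (-1.09). Of 31 tested transporters, 12 (38.7%) were lower, led by Slc3a1 (-2.11), the mitochondrial ornithine carrier Slc25a15 (-2.03), Slc38a4 (-1.88) and Slc6a12 (-1.56). Another 10 transporters (32.3%, near the share of all genes) were higher, led by Slc1a1 (4.70), the cystine carrier Slc7a11 (3.64), Slc38a1 (2.55) and the glutamine carrier Slc1a5 (2.47). Ppm1k, the phosphatase that switches the branched-chain complex on, fell (log2 -1.32), and Bckdk had a log2 difference of 0.23 (adjusted p = 0.383, limma).

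Of 24 regulators, 12 (50%) were lower and 3 (12.5%) higher, beside the same 20.7% and 29.8% of all genes. The lower ones were led by Klf15 (-1.90), a driver of amino acid breakdown in fasting, Cebpb (-1.85) and Ppara (-1.69), and the higher ones were Fgf21 (4.52), Trib3 (2.76) and Ddit3 (1.03), genes of the integrated stress response. Periportal markers that are not members were 5 lower (45.5%) and 2 higher (18.2%) of 11, with G6pc (-4.13), Etnppl (-3.33), Cyp2f2 (-2.69) and Pck1 (-1.94) lower and Apoa4 (2.82) and Cdh1 (0.99) higher. Pericentral markers were 6 lower (40%) and 1 higher (6.67%) of 15, with Cyp27a1 (-2.31), Rgn (-1.85), Oat (-1.72) and Tbx3 (-1.26) lower and the ammonium carrier Rhbg (1.60) higher. No gene of these lists passed the test in CLDN1 mAb against Vehicle Control, where the other breakdown enzymes had a median of 0.53 (54 of 55 above 0).

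A single mouse and shared exons touch some of these values. Regular diet replicate 1 had the highest deposited total (74.6 M normalized counts) and was above its 4 group mates in 17 members and below them in 9. No such count over all genes is given here. Without replicate 1, 32 members were lower in Vehicle Control and 25 in CLDN1 mAb, where Ass1 (adjusted p = 0.0562) and Prodh (adjusted p = 0.108) no longer passed. Of all 18624 genes, 4729 were then lower and 5951 higher in Vehicle Control. In CLDN1 mAb, 3886 were lower and 5142 higher. Exons of 7 members overlap those of another gene, and without a known strand setting their reads cannot be told apart. For Car5a the overlapping model Gm20388 had group means of 1809.6, 1443 and 1338 in Regular diet, Vehicle Control and CLDN1 mAb, against 3957, 683 and 1686 for Car5a. For Sds the overlapping Plbd2 had 7326, 4086 and 5055 against 11260.2, 1707 and 3105. The gene overlapping Gls2 (Spryd4) had 1704, 1314 and 1508 against 27941, 5976 and 8367. Its level relative to Gls2 was higher in Vehicle Control and CLDN1 mAb than in Regular diet. Those overlapping Nags, Got2, Aldh4a1 and Bckdha were at a small fraction of the member.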

How the data were processed

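RNA of 17 livers was sequenced, and the authors deposited 1 table of normalized counts, a signal per gene and library made with cuffnorm of Cufflinks 2.2.1 with the build mm10 named in the submitters' processing notes. For the aligner, annotation release, strand setting and scaling option the entry is: not given in the sources used here. Steps between low values put the depth at 27.7 to 59.5 M fragments per library, and deposited totals ran from 29.7 to 74.6 M. Gene IDs were matched to GENCODE symbols, of which 99.7% matched. The values are not raw counts, so log2(value + 1) was fitted with limma 3.58.1 in R 4.3.3 (trend, all 17 libraries, group as the only term). The filter asked for 10 or more normalized counts in at least 5 libraries and left 18624 genes, with Benjamini-Hochberg adjustment over all of them and a threshold of 0.05. Fold changes are on the log2(value + 1) scale. The fit was tested on simulated data. Nothing in the labels says how cages or litters were shared, so the p-values cover no more than mouse-to-mouse spread, which may be partly technical.

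The 34 members and all gene lists were chosen with earlier results of these data known. Values by library are given for the member with the largest change in each of 8 pathway groups, all urea cycle members, the 5 members with the smallest p between the treated groups, and most genes of tested pairs. Ido2, Tdo2, Odc1, Bckdk, Sdsl and Arg2, also in pairs, are given without values by library. From other lists up to 4 genes per direction are named. The values of 1 tested pair and of 1 regulator are not reported here, and both stay in the counts. The alternatives were the pseudocount, the filter, 5 other scalings, the groups fitted, quality weights, a replicate block and leaving out each library. Scaling by hepatocyte secretory genes and a term for library codes were not planned but added after seeing the data. So was the removal of Trf, at 0 in 4 libraries, from the secretory genes and hepatocyte markers.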

Additional observations from a re-analysis of the deposited data

Results flagged for a closer look

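In 105 group and measure combinations, each library's distance from its group mates was compared with the group's range, and 8 values stood far from the others. Chance gives about 5% of groups such a value. Of the 8, 7 were normalized counts of Regular diet replicate 1: Nags 11418 (next highest 4346), Got2 38416 (next 24101), Haao 88332 (next 33940), Hpd 293490 (next 125685), Fah 99826 (next 34976), Prodh 19039 (next 9739) and Bckdha 39180 (next 15067). The other was Tat in Vehicle Control replicate 2, at 55078 against 23140.5 for the next highest of its group.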

How the results depend on the processing

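In Vehicle Control against Regular diet, 32 to 33 members were lower and 0 higher when any single library was left out, and the members' median log2 fold change ran from -2.30 to -1.84. It was -1.47 when every library was set to 1 total, where the median of all genes shifted to 0.65, -1.45 under quantile normalization and -0.91 under scaling by hepatocyte secretory genes, where it shifted to 1.20. Its distance from the median of all genes was -2.13 as deposited, -2.12 with the same total, -2.11 under the secretory scaling and -1.32 under quantile normalization. Quality weights, which put Regular diet 1 lowest at 0.0851, called all 34 lower, beside 6042 lower and 7151 higher over all 18624 genes. Quantile normalization called 30 lower and 1 higher (Gpt2, 0.78), and the same total 30 lower. Secretory scaling called 21 lower and 2 higher, with log2 values of 1.17 for Gpt2, 0.77 for Bckdhb, 0.12 for Glud1 and 0.17 for Got2. Over all genes the split of lower and higher calls was 3853 and 5547 as deposited, 1266 and 9369 with the same total, 5223 and 4447 under quantile normalization, and 432 and 11666 under secretory scaling. With any single library left out, 3337 to 4729 of all genes were lower and 5145 to 5951 higher.

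In CLDN1 mAb against Vehicle Control, 0 members were called lower or higher in each leave-one-out fit (median 0.56 to 0.94), and 31 higher with quality weights (median 1.24). Over all genes the leave-one-out fits called 0, and the weighted fit called 2798 lower and 2512 higher. In CLDN1 mAb against Regular diet, 23 to 29 were lower and 0 higher when a library was left out, 13 lower and 1 higher under quantile normalization, 15 lower and 2 higher under secretory scaling, and 19 lower and 2 higher with the same total. It was 30 lower and 0 higher both with quality weights and with only the groups compared in the fit. Over all genes the lower and higher calls here were 2634 and 4613 as deposited and 3725 and 3553 under quantile normalization. They were 364 and 5629 under secretory scaling and 831 and 7063 with the same total. With quality weights they were 5183 and 6161, and with only the groups compared 2868 and 4707. With a library left out, 2144 to 3886 of all genes were lower and 4198 to 5142 higher. The causes were not tested. In 7 cases a pair ratio passed between the treated groups after 1 library was left out.

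No label says that replicate numbers pair the mice, and correlations of same-numbered deviations ran from -0.34 to 0.66. With the replicate block 32, 0 and 23 members were lower and 0 higher in the 3 comparisons. Over all genes this block fit called 3795 lower and 5393 higher in Vehicle Control against Regular diet. It called 0 in CLDN1 mAb against Vehicle Control, and 2563 lower and 4408 higher in CLDN1 mAb against Regular diet. Counting error weighs most on low values such as those of Arg2, at most 40.03 per library.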
